A study of Mus musculus with 4 samples.

Results

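The genes for the G-type cyclins Ccng1 and Ccng2, the I-type cyclin Ccni and the D-type cyclins Ccnd1, Ccnd2 and Ccnd3 were followed across microarrays of mouse embryonic fibroblasts (MEFs), primary cells grown from embryos. Members were the probes, other than control spots, whose gene name in the files was one of these 6 genes. They came to 7 of 39429 probes, since Ccnd3 has 2 probes and each other gene has 1, and to 6 of 31829 gene names. Total RNA of MEFs in logarithmic growth was labelled with Cy3 and hybridised to 4 single-color arrays on 1 slide, 1 array for each group, all of the strain C57BL/6J. The group G2KO carried CycG2-/-, and its wild type (WT) carried CycG2+/+. The group DKO carried CycG1-/-CycG2-/-, and its WT carried CycG1+/+CycG2+/+. In the Ccng1 allele every exon with open reading frame had been replaced by a PGK-neo cassette, in all cells of the animal. How far the Ccng2 deletion reaches, and whether the probes of Ccng1 and Ccng2 lie in the deleted parts, was not given in the sources used here. G1KO MEFs were not analysed here, so no comparison separates the loss of Ccng1 from the loss of both genes.

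Cyclins are named for proteins that come and go with the cell cycle, and many of them activate cyclin-dependent kinases. The D-type cyclins are made in response to growth factors, and with Cdk4 or Cdk6 they phosphorylate the retinoblastoma protein Rb, which releases E2F factors and lets cells enter S phase. Cyclins G1, G2 and I form a structurally related branch that does not follow this pattern. Ccng1 is a direct transcriptional target of p53, and its protein brings the phosphatase PP2A to Mdm2, the ubiquitin ligase that degrades p53. Ccng2 is a FoxO target that is high in resting or arrested cells, and Ccni is best known from post-mitotic cells such as neurons and podocytes.

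The 60-base probes show what was measured for each gene. The 30-base stretches below are printed because each level in this report is the brightness of 1 such probe; they run 5′ to 3′, and capitals mark the hexamer AATAAA, the usual polyadenylation signal, where a stretch holds it.
Ccng1, bases 1 to 30: agaAATAAAattgctgagtttatctgcaaa
Ccng2, bases 1 to 30: cattgatgacttactttttattagtaagtc
Ccni, bases 1 to 30: ttatgccattaggattttcttgataaggaa
Ccnd1, bases 1 to 30: ttaatctgttaggttctagtgttccgtctt
Ccnd2, bases 1 to 30: aagagaccatcccgctgactgcggaaaagc
Ccnd3, bases 31 to 60: ctgctgccttAATAAAgatttcagAATAAA
In mm9 coordinates, as the files give them, the Ccng1 probe (NM_009831) lies at chr11:40562427-40562486 on the minus strand. The Ccng2 probe (NM_007635) lies at chr5:93705131-93705190 on the plus strand, and the Ccni probe (NM_017367) lies 94.0 kb from it at chr5:93611057-93611116 on the minus strand. The Ccnd1 probe (NM_007631) lies at chr7:152116202-152116261 and the Ccnd2 probe (NM_009829) at chr6:127098696-127098755, both on the minus strand. The Ccnd3 probes lie at chr17:47736579-47736638 (NM_001081636, the stretch shown) and at chr17:47736267-47736326 (NM_007632), both on the plus strand. Exon and UTR positions of the probes were not analysed here.

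A level is the processed signal of a probe divided by the 75th percentile of all probes on the same array, and each level is followed by the error that the scanner software gives to that spot. That error covers the spot alone; with 1 culture for each group there is no replicate check of any difference, and no p-value is given for a single comparison. Levels are compared for the same probe between arrays, not between genes. On the 24197 probes well above background on every array, log2 ratios had an SD of 1.01 between the arrays labelled WT, 1.02 between DKO and its WT, and 0.86 between G2KO and its WT. The array labelled G2KO was closer to the WT of DKO, with an SD of 0.53. The study describes En2 and Sox2 as up-regulated and Pdgfra as down-regulated in G2KO MEFs, but the direction on these arrays is the opposite. The En2 level was 0.0260 on the array labelled G2KO and 14.8 on the array labelled WT of G2KO, and that of Pdgfra was 1.75 and 0.00223. Sox2 had 2.37 on that WT array and did not rise well above background on G2KO. No value here settles the labels of this pair, so directions in the G2KO comparison rest on the labels as given, and an exchange would turn their sign and leave their size. It would also make the pair of G2KO and the WT of DKO, with the SD of 0.53, the comparison of WT arrays. Of 12 fibroblast markers, 12 were well above background on each array except the WT of G2KO, where Pdgfra and Lum were not. Their summed level lay between 403 and 600, but single markers differed widely: Thy1 was 0.461 on the WT of G2KO and 3.42 on DKO beside 53.1 and 61.5 on G2KO and the WT of DKO, and Dcn was 49.0 on DKO beside 0.0722 to 2.95.

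**Figure D1:**
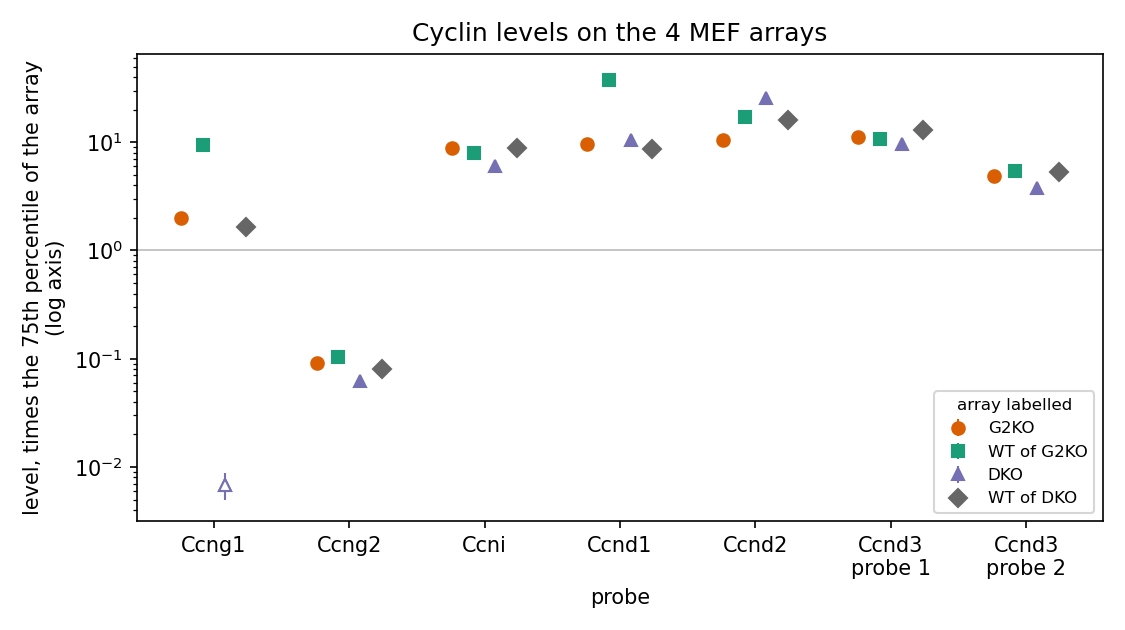
Level of each cyclin probe on the 4 arrays, as times the 75th percentile of the array on a log axis. Bars are the spot error, the open symbol is not well above background, and the thin line is the 75th percentile. Ccng1 and Ccnd1 stand high on the WT of G2KO (9.45 and 37.7), and Ccng1 of DKO is the only open symbol.

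Ccng1, one of the targeted genes, had the widest range of the members. Its level was 1.98 ± 0.198 (spot error) on the array labelled G2KO, 9.45 ± 0.945 on its WT, and 1.66 ± 0.166 on the WT of DKO. On DKO it was 0.00685 ± 0.00191 and not well above background. Ccng1 was thus at least 228-fold lower in DKO than in its WT (log2 ratio of at most -7.83; -4.84 with normexp background correction). Only 0.180% of the 28389 probes compared had a ratio of this size or more in either direction. Against the other arrays it was at least 271-fold lower than on G2KO and at least 1293-fold lower than on the WT of G2KO. The DKO array is therefore the lowest against each of the other 3 arrays.

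Among the other 3 arrays, Ccng1 was high on the WT of G2KO alone. Its log2 ratio was -2.26 ± 0.20 (spot SE) for G2KO over its WT, a 4.78-fold lower level. It was -2.51 ± 0.20 for the WT of DKO over the WT of G2KO, a 5.68-fold difference between arrays that both carry intact Ccng1. G2KO and the WT of DKO differed by 0.25 ± 0.20, which is within 2 spot SE. As labelled, the G2KO ratio is smaller than the one between WT arrays, and with the labels of this pair exchanged the ratio between WT arrays would be the 0.25.

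Ccng2, the other targeted gene, was dim but well above background on every array, the knockouts included. Its level was 0.0910 ± 0.00924 on G2KO, 0.104 ± 0.0105 on its WT, 0.0619 ± 0.00644 on DKO and 0.0806 ± 0.00842 on the WT of DKO. The log2 ratio was -0.19 ± 0.21 for G2KO over its WT and -0.38 ± 0.21 for DKO over its WT, and neither passed 2 spot SE. Between the WT arrays it was -0.37 ± 0.21. The DKO array was lower than the WT of G2KO and than G2KO beyond 2 spot SE, with log2 ratios of -0.75 and -0.56. In those comparisons 36.9% and 46.5% of all probes had ratios of at least these sizes. Without scaling between arrays the G2KO ratio turned to 0.30. Since the extent of the deletion is not known here, this probe checks neither knockout label.

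Ccni, the relative of the G-type cyclins on the same chromosome as Ccng2, had levels of 8.82 ± 0.882 on G2KO, 8.01 ± 0.801 on its WT, 5.97 ± 0.597 on DKO and 8.89 ± 0.889 on the WT of DKO. G2KO and both WT arrays lay within 2 spot SE of each other, and DKO was lowest. The log2 ratio was -0.57 ± 0.20 for DKO over its WT, a 1.49-fold lower level that is beyond 2 spot SE. Of all probes compared, 39.3% had a ratio of at least this size.

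Ccnd1, the D-type cyclin best known as a growth factor target in fibroblasts, was high on 1 array. Its level was 9.67 ± 0.967 on G2KO, 37.7 ± 3.77 on its WT, 10.4 ± 1.04 on DKO and 8.69 ± 0.869 on the WT of DKO. G2KO, DKO and the WT of DKO did not differ from each other beyond 2 spot SE. The log2 ratio was -1.97 ± 0.20 for G2KO over its WT (3.90-fold lower) and -2.12 ± 0.20 for the WT of DKO over the WT of G2KO (4.34-fold lower). For DKO over its WT it was 0.26 ± 0.20, and against the WT of G2KO it was -1.86, so that the sign of the DKO ratio depends on the WT array used.

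Ccnd2, the D-type cyclin prominent in ovarian granulosa cells and neural progenitors, was highest on DKO. Its level was 10.5 ± 1.05 on G2KO, 17.3 ± 1.73 on its WT, 25.6 ± 2.56 on DKO and 15.9 ± 1.59 on the WT of DKO. The arrays labelled WT did not differ beyond 2 spot SE, with G2KO below both and DKO above both. The log2 ratio was -0.72 ± 0.20 for G2KO over its WT and 0.69 ± 0.20 for DKO over its WT. With the WT arrays exchanged, the ratios were -0.60 and 0.57, so that both signs stayed under the labels as given. DKO over G2KO gave 1.29 ± 0.20, a 2.44-fold higher level. All these ratios but the last are smaller than the SD of 1.01 over all probes between the arrays labelled WT. All are larger than the 0.53 between G2KO and the WT of DKO, but the -0.60 is the ratio of that same pair. With the labels of the G2KO pair exchanged, Ccnd2 would thus differ by -0.60, beyond 2 spot SE, between the WT arrays. Without scaling, the ratio of G2KO over its WT was -0.22, within 2 spot SE.

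Ccnd3, the most broadly expressed D-type cyclin, varied least. With the probe shown above its level was 11.3 ± 1.13 on G2KO, 10.7 ± 1.07 on its WT, 9.72 ± 0.972 on DKO and 12.9 ± 1.29 on the WT of DKO, a span of 1.33-fold. The other probe spanned 1.41-fold, from 3.80 on DKO to 5.36 on the WT of G2KO. Both probes were lowest on DKO, with log2 ratios of -0.41 and -0.47 against its WT, beyond 2 spot SE. Of all probes compared, 51.9% and 46.8% had ratios of at least these sizes. Against the WT of G2KO the DKO ratios were -0.14, within 2 spot SE, and -0.50, beyond it. For G2KO over its WT the probes had opposite signs, 0.07 and -0.14, both within 2 spot SE.

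**Figure D2:**
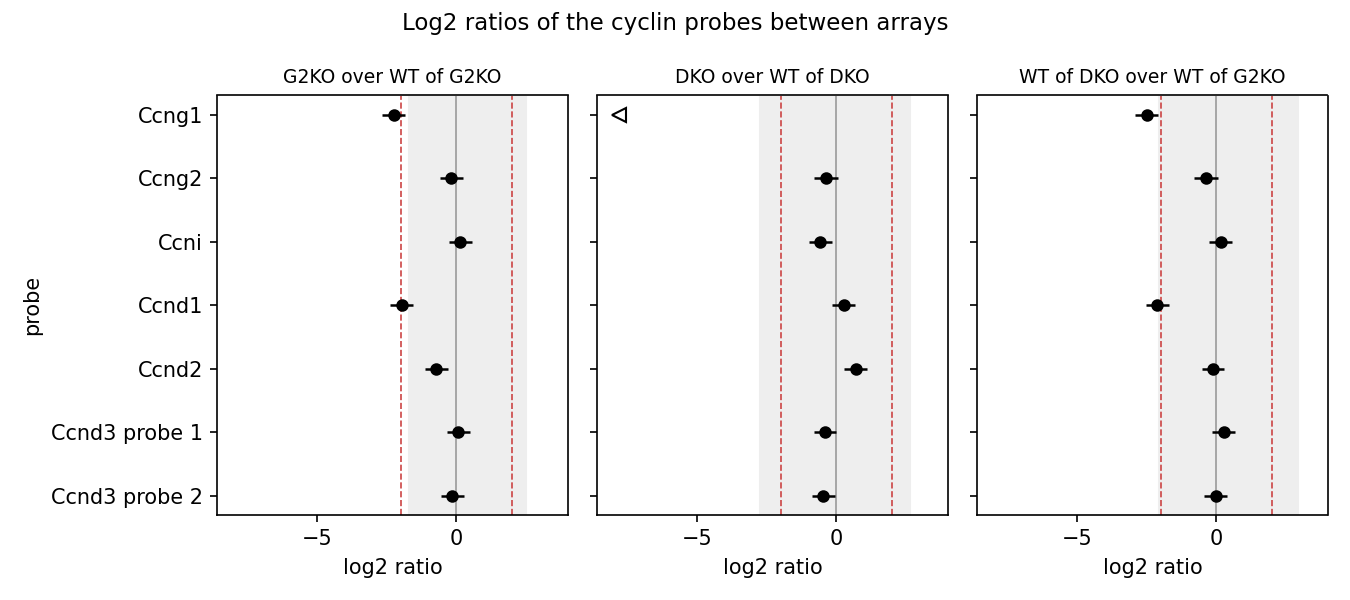
Log2 ratio of each cyclin probe in G2KO over its WT, DKO over its WT and the WT of DKO over the WT of G2KO. Bars are 2 spot SE, the open triangle is an upper limit (-7.83), the grey band holds the middle 95% of all probes compared, and dashed lines mark 4-fold; Ccng1 and Ccnd1 lie near -2 in the first and last panels and apart only in the middle one, and the other probes lie inside the band throughout.

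Few of the 7 probes passed a fold threshold in any comparison. A difference of at least 4-fold was found for 1 probe (Ccng1) in G2KO over its WT, beside 5.5% of all probes compared, for 1 (Ccng1) in DKO over its WT, beside 7.92%, and for 2 (Ccng1 and Ccnd1) between the WT arrays, beside 7.21%. At 2-fold there were 2 (beside 16.9%), 1 (beside 20.3%) and 2 (beside 21.7%). Between G2KO and the WT of DKO there were 0 at either threshold. These would be the WT arrays if the labels of the G2KO pair were exchanged. The share of all probes past either threshold was not counted for this pair. On probes well above background on every array, its log2 ratios had an SD of 0.53, beside 0.86 to 1.02 in the comparisons above. The 0 is therefore not read as a result about the cyclins. Over 7 probes, 1 probe already makes 14.3%, so the other counts cannot be told from the background shares. The size of the Ccng1 ratio in DKO lies far outside the bulk of probes. The median log2 ratio over the 6 genes was -0.45, -0.40 and -0.24 in the same order, where that of all probes was -0.16, 0.03 and -0.08. Without Ccng1, the DKO ratios ran from -0.57 to 0.69.

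The G2KO and the WT comparison share the WT array of G2KO, and Ccng1 and Ccnd1 were high on that array in both. On the same array the summed level of 6 neural progenitor markers was 45.3, beside 1.31 to 2.14 on the others. Nes (28.0) and En2 (14.8) made up most of it, Sox2 was well above background there alone, and Sox1 was lowest there (0.105). The number well above background was 5 on this array (all but Pax6), 5 on G2KO (all but Sox2) and 3 on DKO and on the WT of DKO. Their part in the Ccng1 and Ccnd1 levels was not tested. On DKO, where Ccnd2 was highest, 9 of 9 mesothelial markers were well above background with a summed level of 149. On the other arrays 2 to 4 were, with sums of 0.584 to 1.58, and Wt1, Upk3b, Upk1b, Lrrn4 and Gpm6a were not well above background. The part of such cells in the Ccnd2, Ccni and Ccng1 levels of DKO was not tested, and in bulk RNA more cells of a type and more RNA per cell cannot be told apart.

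The summed level of 4 smooth muscle markers was 42.6 on DKO beside 214 to 362 on the other arrays. Acta2 and Tagln made up most of it, while Myh11 was highest on DKO and Cnn1 was higher there (1.41) than on the WT of DKO (1.25). Summed levels ran from 3.08 to 4.43 for endothelial, from 0.574 to 0.749 for macrophage (3 of 4 genes on the array) and from 1.57 to 2.75 for keratinocyte markers. Most of these sums came from Kdr, Csf1r and Trp63, and dimmer markers differed more, with Cdh5 well above background on G2KO alone (0.0205).

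The promoter of Ccng1 is shown because the gene is a p53 target and the p53 targets moved on these arrays. It is the 250 bases before the transcript start in RefSeq, GRCm38.p6, chr11:40755287-40755536 on the minus strand, with the best match to the p53 consensus site in capitals.
Ccng1 promoter: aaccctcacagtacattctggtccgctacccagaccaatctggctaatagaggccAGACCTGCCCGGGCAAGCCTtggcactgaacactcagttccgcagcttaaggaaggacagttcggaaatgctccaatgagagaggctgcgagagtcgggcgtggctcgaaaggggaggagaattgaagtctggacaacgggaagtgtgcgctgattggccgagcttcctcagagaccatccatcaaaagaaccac
The site was searched on both strands as 20 bases, made of 2 adjacent repeats of 10 with no spacer. The match lies at -195 to -176 from the start and has 1 mismatch in its first repeat and 0 in its second. A match with at most 1 mismatch stands in 25 of 32841 promoters of this length (0.0761%). The best matches in the promoters of Ccng2 and Ccni have 5 mismatches, and those of the Ccnd3 promoters have 4 and 6. Ccnd1 and Ccnd2 have no entry in the promoter table. The forkhead core motif TGTTTAC, searched on both strands, occurs in the promoters of Ccni and of 1 Ccnd3 transcript and in 3.17% of all promoters. Such matches describe letters only, and binding was not measured.

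Other p53 target genes were compared with Ccng1 on the same arrays. All 20 listed genes were on the array. In G2KO over its WT, 18 of 20 had a ratio below 0, with a median of -1.31, where the median of all genes was -0.17. Between the WT arrays 18 of 20 did, with a median of -1.06, where that of all genes was -0.08. In DKO over its WT, 19 of 20 had a ratio above 0, with a median of 1.57, where the median of all genes was 0.03. A 2-fold higher level in DKO was found for 12 and a 2-fold lower level for 0, beside 10.6% and 9.61% of all genes. Against the WT of G2KO, 14 of 20 were above 0 in DKO, with a median of 0.59. In G2KO over the WT of DKO, 18 were compared, with 8 above 0 and 10 below. Their median was -0.24, where that of all genes was -0.07.

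The listed genes with the largest DKO ratios were Perp, a desmosome protein with a role in cell death (5.77), Eda2r, a receptor of the TNF family (at least 4.34), Trp53inp1, an autophagy factor (4.08), and Btg2, an antiproliferative factor (3.92). Perp had levels of 0.469 on G2KO, 3.10 on its WT, 35.0 on DKO and 0.641 on the WT of DKO. Mdm2, to which cyclin G1 brings PP2A, had levels of 7.61, 19.3, 32.5 and 6.14 in the same order. Leaving DKO aside, Ccng1, Perp and Mdm2 were all higher on the WT of G2KO than on G2KO and the WT of DKO, and on DKO Ccng1 was not well above background where Perp and Mdm2 were highest. Cdkn1a, the Cdk inhibitor p21, was the 1 gene of the 14 listed ones with a promoter entry that also had a site with at most 1 mismatch. It was named after its values were seen, which were 0.643, 8.20, 5.00 and 0.572. It was high on the WT of G2KO and on DKO.

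**Figure D3:**
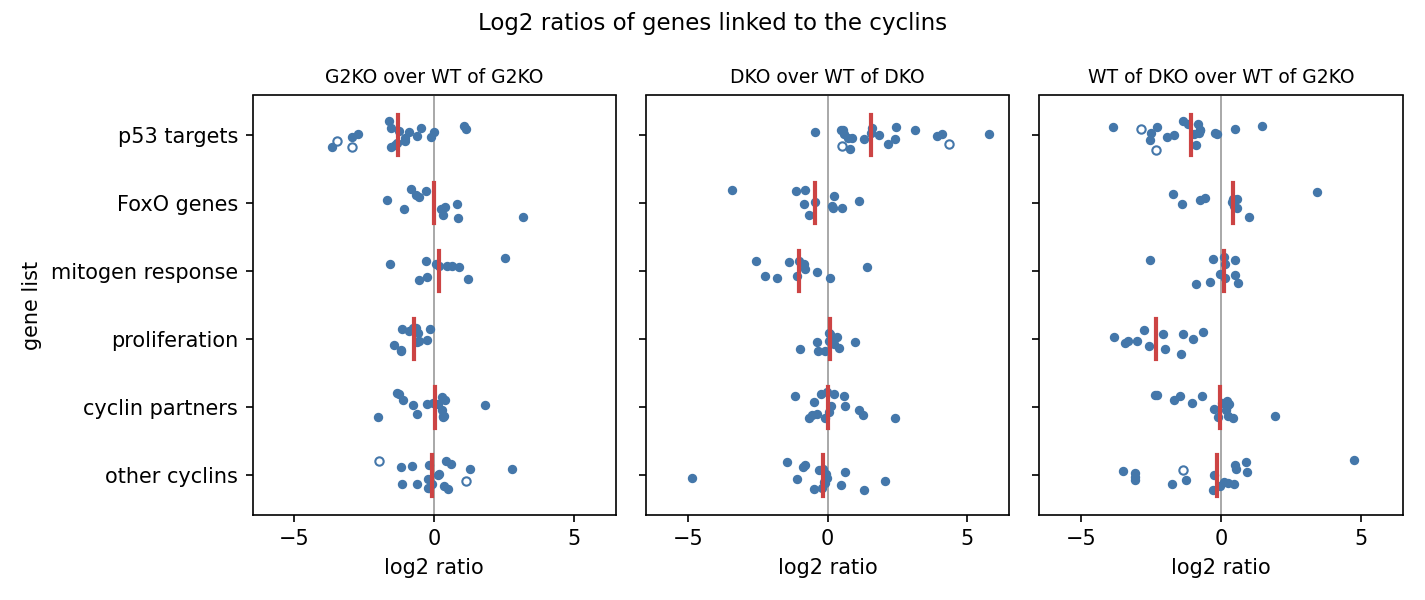
Log2 ratios of 6 lists of genes linked to the cyclins, in the same comparisons. Each point is a gene, open points are limits set by a dim probe, red bars are list medians, and height within a row carries no value. The p53 targets lie to the left in both comparisons with the WT of G2KO (medians -1.31 and -1.06) and to the right in DKO over its WT (1.57).

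The 16 partners of the G-type and D-type cyclins, among them kinases, Rb proteins, E2F factors and PP2A subunits, were balanced around 0. In each comparison 8 were higher and 8 lower. Median log2 ratios were 0.04 for G2KO, 0.02 for DKO and -0.03 between WT arrays, and their sign changed with the scaling. In DKO the largest ratios were those of Mdm2 (2.41), Rb1 (1.27), the PP2A regulatory subunit gene Ppp2r5c (-1.17) and E2f2 (1.12). Rb1 resembled Ccnd1 in that it was highest on the WT of G2KO, with levels of 0.535 on G2KO, 2.17 on its WT, 1.02 on DKO and 0.425 on the WT of DKO.

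Of 20 other cyclins, 19 were compared in G2KO, 17 in DKO and 18 between WT arrays, and Ccnb3 was not well above background on any array. Their medians were -0.08, -0.17 and -0.15, and those of G2KO and of the WT arrays changed sign without scaling. The G2KO median was also above 0 against the WT of DKO and against the mean of both WT arrays. A 2-fold difference in DKO was found for 5 of 17, with 2 higher and 3 lower, beside 20.3% of all genes. The largest was Ccno, a cyclin of multiciliated cells, at -4.84, followed by Ccny (2.05), Ccne1, the S phase entry cyclin (-1.43), and Ccnf, a mitotic F-box protein (1.29). Between WT arrays 7 of 18 were at least 2-fold lower, beside 9.92% of all genes, with the lowest ratio at -3.50. Another 1 was at least 2-fold higher, where the share of all genes was not counted. Ccno had 4.78 there and Ccny had -1.73.

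Lists tied to the control of Ccnd1 and Ccng2 came next. The 11 mitogen response genes are mostly ones induced by the growth factor and Wnt signals that also raise Ccnd1. Of them, 9 were lower in DKO than in its WT (median -1.01). Of these 11 genes, 6 were 2-fold lower and 1 was 2-fold higher, beside 9.61% and 10.6% of all genes. Jun (-2.54), Spry2 (-2.23) and Etv4 (-1.81) were lower and Dusp6 was higher (1.41), while Ccnd1 itself had 0.26. In G2KO their median was 0.17 and between WT arrays 0.12 (below 0 with quantile normalization or scaling to the median), where Ccnd1 had -1.97 and -2.12. Of 12 FoxO factors and targets, the group to which Ccng2 belongs, 11 were compared in DKO with 5 higher and 6 lower (median -0.45), beside -0.38 for Ccng2. In G2KO 6 were higher and 6 lower, with a median of -0.01. That median was above 0 without scaling, with quantile normalization and against the mean of both WT arrays. Between WT arrays 7 of 11 were higher (median 0.45). In DKO over its WT, Fbxo32, a ubiquitin ligase of muscle atrophy, had the largest ratio, -3.42, followed by Foxo1 (-1.14), the thioredoxin inhibitor gene Txnip (1.12) and the insulin receptor substrate gene Irs2 (-0.84). Between WT arrays Fbxo32 had 3.45.

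Proliferation genes differed most between the WT arrays. All 12 were lower on the WT of DKO than on the WT of G2KO (median -2.32), and 10 of them at least 2-fold, beside 9.92% of all genes. In G2KO over its WT all 12 were lower as well (median -0.71), but against the WT of DKO all 12 were higher (median 1.68). In DKO over its WT the median was 0.08, and 8 were higher and 4 lower, with none past 2-fold. Against the WT of G2KO, all 12 were lower in DKO (median -2.17). For Ccnd1 the array with the highest level was thus also the one with the highest proliferation genes by their median level of 8.55. On G2KO, with a median level of 7.38, Ccnd1 was no higher than on DKO and the WT of DKO, whose proliferation medians were 2.24 and 1.94.

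The genes whose log2 levels, centred on their mean over the 4 arrays, lay nearest to those of a member were found among 15244 named genes, as a description with no test. For Ccng1 they were Ccbe1, Cyp26b1 and Mgll, in this order. Ccng1, Ccbe1 and Cyp26b1 were not well above background on DKO. Ccng1 and Ccbe1 stand there at the floor of the array and Cyp26b1 at its own dim signal, so the order of the nearest genes is uncertain. Ccbe1 had levels of 2.32 on G2KO, 2.11 on its WT, 0.00256 on DKO (not well above background) and 0.962 on the WT of DKO, so that what it shared with Ccng1 was the low DKO level and not the high WT of G2KO. For Ccnd1 they were Krtap8-2, Olfr415 and Tmem80, at distances of 0.27, 0.28 and 0.30, each high on the WT of G2KO alone, as with 1.49 for Tmem80 beside 0.394 to 0.513.

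With both WT arrays taken as a group, limma, whose error then rests on 1 residual degree of freedom, called 0 of 7 cyclin probes at an adjusted p of 0.05 in either knockout. At an unadjusted p of 0.05 it gave 0 in G2KO and 1 in DKO, which was Ccng1 with an adjusted p of 0.31 (0.051 to 0.37 over its alternatives). Of 30344 probes, 0 (0%) were called in either knockout, and 475 and 2498 had an unadjusted p under 0.05. No statement above rests on this fit.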

How the data were processed

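The authors labelled total RNA with Cy3, hybridised it to single-color Agilent mouse arrays and extracted spot intensities with Agilent Feature Extraction, version 10.5.1.1 in the submitters' processing notes and 10.7.3.1 in the file headers, which subtracted background and corrected spatial trends. The study's methods describe dye-swapped arrays for G2KO, whereas the deposited G2KO files hold a single color. The deposited value table holds the same intensity for each of its 44397 features, with a largest log2 difference of 0. Each array has 43020 spots besides 1377 controls.

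From the processed signals, control spots and spots flagged as outliers (107 to 140 per array) were left out, signals were divided by the 75th percentile of the array (1586.21 to 2233.61) and log2 was taken. Ratios were taken for probes well above background on 1 or both of the arrays compared. A dim level was replaced by the array's lowest signal well above background (11.4 to 19.2) where that was higher, which gives a limit. No spot was saturated, and 65.0% to 72.2% of probes were well above background on an array. For several probes of a gene, the one with the highest mean log2 level was used. The number of arrays, 1 per group, limits precision. Scripts were tested on simulated data.

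The 6 genes, the gene lists and the markers were chosen with earlier results of these data known. Named genes were the members, the 4 genes of each list with the largest absolute DKO ratio, and the 3 genes nearest in pattern to members spanning at least 4-fold. Gene names and mm9 probe positions are those of the files. Promoters were found for 4 of 6 members. Alternatives were normexp correction (offset 50), other scalings, the deposited table, outlier spots kept, no floor for dim probes, another probe, genes in place of probes, a 2-fold threshold, another WT array, and limma settings. Python 3.11.15, numpy 2.4.6, pandas 2.3.3, matplotlib 3.10.9, R 4.3.3 and limma 3.58.1 were used.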

Additional observations from a re-analysis of the deposited data

Results flagged for a closer look

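Ccnd2 had ratios of opposite sign in the knockouts, with a log2 ratio of -0.72 in G2KO over its WT and 0.69 in DKO over its WT. The opposite signs rest on the labels as given. With the labels of the G2KO pair exchanged, the G2KO ratio would turn positive, as in DKO. The difference between these effects was not tested, since each group has 1 array. Each is smaller than the SD of 1.01 over all probes between the arrays labelled WT. Each is larger than the 0.53 between G2KO and the WT of DKO. These would be the WT arrays if the labels of the G2KO pair were exchanged, and Ccnd2 itself had -0.60 between them. The ratios of G2KO and DKO over their own WT lie beyond 2 spot SE. Without scaling or with the deposited table the G2KO ratio was -0.22, within 2 spot SE. Groups of 1 array could not be searched for outlying arrays.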

How the results depend on the processing

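The probe count past 4-fold in G2KO, reported as 1, was 2 with scaling to the median or a 2-fold threshold, and 0 without scaling, with the deposited table, against the WT of DKO or against the mean of the WT arrays. Between WT arrays it was 1 in place of 2 without scaling, with quantile normalization or with the deposited table. In DKO it was 1 under each alternative. The Ccng1 log2 ratio in G2KO turned to 0.25 against the WT of DKO and was -1.004 against the mean of both WT arrays. In DKO it was -4.84 with normexp background correction, -10.34 against the WT of G2KO and -9.08 against the mean of both WT arrays. Ccnd1 gave 0.15 and -0.91 in G2KO, and -1.86 and -0.80 in DKO, against the same arrays. Leaving out scaling moved the median of all probes by 0.50 in G2KO and by 0.25 between WT arrays, and scaling to the median moved the latter by -0.18. Normexp moved the DKO median by 0.11. Over the processing alternatives, the DKO ratios of all 6 genes kept their sign, and in G2KO those of Ccng2 (-0.26 to 0.30) and Ccnd3 (-0.14 to 0.57) did not. Between WT arrays the signs of Ccni, Ccnd2 and Ccnd3 changed too. The alternatives were also applied to the gene lists, which was added after seeing the data. The p53 medians kept their signs, but that of G2KO shrank from -1.31 to -0.24 against the WT of DKO. The proliferation median turned to 1.68 in G2KO against the WT of DKO and to 0.40 against the mean of both WT arrays. In DKO it turned to -2.17 against the WT of G2KO and -1.05 against that mean. The limma result for the cyclin probes was the same under each of its settings. Over the whole array it was not, since some probes were called in DKO where all probes were tested. Causes were not tested. No paired analysis was possible because each group has 1 array. Signal over background limits Ccng1 in DKO to a bound.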
